A study of Mus musculus with 4 samples.

Results

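The interferon regulatory factor (IRF) family was followed through cultured and stimulated CD4 T cells of the mouse spleen. Its members were chosen by gene symbol: Irf1, Irf2, Irf3, Irf4, Irf5, Irf7, Irf8 and Irf9, which are 8 of the 32285 genes in the deposited count files, and all 8 were found. CD3+CD4+ T cells had been sorted from spleens of C57BL6/J mice, kept for 6 hours with anti-CD3 and anti-CD28 Dynabeads, which engage the T cell receptor and its co-receptor, and profiled by droplet single-cell RNA sequencing that reads the 3′ end of transcripts. All 4 libraries were stimulated, and each of the 2 genotypes, Irf5-/- (knockout) and wild type, had 1 library from females and 1 from males. The labels name neither the part of Irf5 that the allele lacks, nor the age or the number of the mice behind a library, and no unstimulated cells were profiled, so p-values measure only the spread between these 4 libraries. Cells were kept at 2000 or more unique molecular identifiers (UMIs, each counted as 1 RNA molecule), 500 or more genes and at most 10% mitochondrial UMIs, which left 19100 cells. Values for the 4 libraries are given in 1 order throughout, both female libraries before both male ones and knockout before wild type within each sex: the cells numbered 6178, 1814, 6543 and 4565.

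The libraries differed in depth and in free RNA. The median was 5105, 8416, 6741 and 9661 UMIs per kept cell, and droplets with fewer than 200 UMIs held 8.62%, 36.2%, 9.56% and 14.7% of all UMIs. UMIs from at least 2 of 8 CD4 T cell markers were found in 97.9% to 99.4% of the kept cells. Between 8 and 29 cells of a library had UMIs from at least 2 markers of 1 other type (B, myeloid, plasmacytoid dendritic, NK or erythroid), and any pair of libraries shared 2 to 14 cell barcodes. Summed erythroid markers stood at 1381 CPM (counts per 1000000 UMIs in kept cells) in the female wild-type library and at 1.55 to 34.4 in the other libraries.

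IRF proteins share a DNA-binding domain that recognises GAAA repeats in the promoters of interferons and of the genes that interferons induce. Irf3 and Irf7 are switched on by kinases below nucleic acid sensors, Irf5 acts downstream of Toll-like receptors and Myd88, and Irf9 is the DNA-binding part of the complex that forms with Stat2 after interferon signalling. Irf1 and Irf2 bind the same sites as activator and, mostly, repressor. Irf4 and Irf8 bind weakly alone and work with Spi1, Batf and Jun family partners, and Irf4 is known in T cells as a factor induced by the T cell receptor.

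Promoter sequence is shown for 4 members whose levels followed activation in different ways: Irf1, which dipped in the middle of the activation range, Irf2, which fell, and Irf4 and Irf8, which rose. Each is the 250 bases before the RefSeq start on GRCm38.p6, printed 5′ to 3′ on the strand of the gene, with capitals on every match to 1 of 6 motifs. Those were the interferon gamma-activated site TTCNNNGAA, the interferon-stimulated response element, the Ets-IRF composite element, the NF-κB consensus, the AP-1 site TGANTCA and the TATA box TATAAA, all searched on both strands.
Irf1, chr11:53769764-53770013: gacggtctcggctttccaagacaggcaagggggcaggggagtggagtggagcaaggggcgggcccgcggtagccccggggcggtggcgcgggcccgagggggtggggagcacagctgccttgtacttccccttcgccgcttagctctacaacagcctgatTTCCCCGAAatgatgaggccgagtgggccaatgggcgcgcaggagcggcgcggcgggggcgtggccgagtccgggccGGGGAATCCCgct
Irf2, chr8:46739495-46739744: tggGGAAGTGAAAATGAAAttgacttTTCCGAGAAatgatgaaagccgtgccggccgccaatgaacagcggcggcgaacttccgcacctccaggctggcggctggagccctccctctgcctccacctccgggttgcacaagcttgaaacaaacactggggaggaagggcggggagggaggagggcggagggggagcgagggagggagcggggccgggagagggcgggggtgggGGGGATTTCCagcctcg
Irf4, chr13:30748983-30749232: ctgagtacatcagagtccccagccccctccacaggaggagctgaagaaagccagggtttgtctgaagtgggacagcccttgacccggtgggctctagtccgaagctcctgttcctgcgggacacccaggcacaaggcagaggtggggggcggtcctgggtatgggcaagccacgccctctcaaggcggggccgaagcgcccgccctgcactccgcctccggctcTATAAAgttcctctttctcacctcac
Irf8, chr8:120736108-120736357: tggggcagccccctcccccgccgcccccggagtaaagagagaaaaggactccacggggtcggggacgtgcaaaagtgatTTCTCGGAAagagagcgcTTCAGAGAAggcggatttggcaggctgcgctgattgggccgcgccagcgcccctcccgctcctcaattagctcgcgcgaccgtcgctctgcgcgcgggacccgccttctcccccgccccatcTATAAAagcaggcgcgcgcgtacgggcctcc
The Irf1 window held a gamma-activated site from 90 to 82 bases before the start and an NF-κB match from 13 to 4 bases before it. The Irf2 window held a response element, a composite element that overlapped it, a gamma-activated site and an NF-κB match. The Irf8 window held 2 gamma-activated sites, from 171 to 163 and from 153 to 145 bases before the start, and a TATA box, whereas the Irf4 window matched the TATA box only. Over 32851 windows of this length, 7.02% held a gamma-activated site, 2.98% a response element, 2.30% a composite element, 3.90% an NF-κB match, 6.75% an AP-1 site and 12.4% a TATA box. Of the other members, the Irf7 window held a TATA box, and the windows of Irf3, Irf5 and Irf9, with the second windows of Irf1, Irf8 and Irf9, held none of the 6. A match of letters is a description of the sequence and not evidence of binding.

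Irf4 was the most abundant member in every library. It was present at 687, 660, 671 and 635 CPM, or 663 ± 21.7 (SD, n = 4). Irf8 followed at 279, 344, 283 and 236 CPM (285 ± 44.7, SD, n = 4) and Irf1 at 228, 244, 221 and 179 CPM (218 ± 27.5, SD, n = 4). Because 1 end of each molecule is counted, these levels do not scale with transcript length. Whether capture differed between the genes was not tested, so the order given is that of counted UMIs. Irf2 had 126, 116, 115 and 104.7 CPM, Irf9 71.9, 70.4, 64.7 and 51.2 CPM, and Irf3 49.4, 47.1, 53.9 and 46.8 CPM. Irf7 had 35.8, 29.2, 29.7 and 15.2 CPM, and Irf5 8.57, 0.936, 9.07 and 1.18 CPM. The ranges of Irf8 and Irf1 overlapped across libraries, as did those of Irf9 and Irf3, while every other pair of neighbours in this order was separated in all 4 libraries. The male library labelled wild type had the lowest level of Irf1, Irf2, Irf3, Irf4, Irf7, Irf8 and Irf9.

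**Figure D1:**
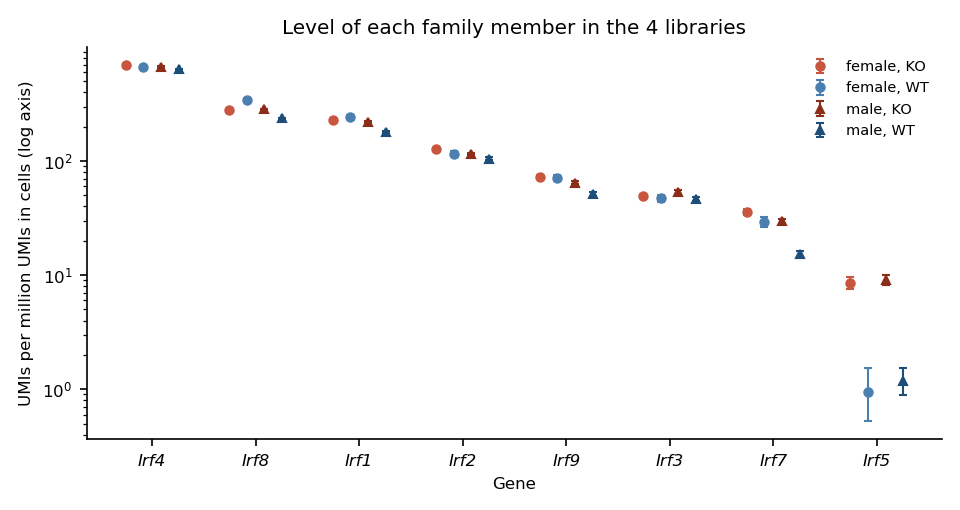
Level of each member in CPM over kept cells (log axis) for the 4 libraries, circles for female and triangles for male, red for libraries labelled knockout and blue for those labelled wild type, with exact Poisson 95% intervals that cover counting error only. Irf4 lies between 635 and 687 in all libraries, and Irf5 lies near 1 in both libraries labelled wild type and near 9 in both labelled knockout.

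When every cell was thinned to 2000 UMIs, Irf4 was detected in 56.1% to 58.4% of the cells of a library, Irf8 in 24.6% to 34.9% and Irf1 in 28.8% to 34.9%. The remaining members were detected in 21.1% to 24.6% (Irf2), 11.2% to 15.4% (Irf9), 9.15% to 10.5% (Irf3), 3.59% to 8.26% (Irf7) and 0.110% to 1.68% (Irf5). For comparison, 53 kept cells with at least 10000 UMIs, at most 1 UMI of the CD4 T list and no pair of B markers were set beside 4063 cells with T markers above the same minimum, a choice made after the data were seen. Their median depths were 16411 and 12303 UMIs. After thinning, Irf4 was detected in 1.89% of the former (exact 95% interval 0.0478% to 10.1%) and 71.2% of the latter, and Irf8 in 1.89% and 24.1%. Irf1 and Irf7 went the other way, at 35.8% against 16.1% and 13.2% against 1.11%, and Irf2, Irf3, Irf5 and Irf9 were also at or above the share of the T cells. The cells without T markers may hold these 6 transcripts themselves, so for these members the shares give no measure of free RNA, and the comparisons below use summed levels. Over all kept cells of a library the thinned shares were 28.8% to 34.9% for Irf1 and 3.59% to 8.26% for Irf7. These lie above the shares of the deep cells with T markers, and the part of the depth minimum in the contrast was not tested. Droplets with fewer than 200 UMIs held Irf4 at 541 to 626 CPM and Irf1 at 155 to 209 CPM, close to the levels in cells.

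Several members overlap other genes in GENCODE M21 on GRCm38, and whether counting used strand is not given in the sources used here. Irf5 (ENSMUSG00000029771, chromosome 6, 29526625 to 29541871) shares 1045 bases with Tnpo3, which is read from the opposite strand, and Irf3 (ENSMUSG00000003184, chromosome 7, 44997648 to 45002848) overlaps Bcl2l12 on the opposite strand by 1065 bases. Irf7 (ENSMUSG00000025498, chromosome 7, 141262706 to 141266481) shares 45 bases with Phrf1 on the opposite strand, and Irf9 (ENSMUSG00000002325, chromosome 14, 55603571 to 55610030) shares 123 bases with Rnf31 on its own strand. Irf2 (ENSMUSG00000031627, chromosome 8, 46739732 to 46847458) has 2 antisense genes within it in the files. Irf1 (ENSMUSG00000018899, chromosome 11, 53770014 to 53778374), Irf4 (ENSMUSG00000021356, chromosome 13, 30749226 to 30766976) and Irf8 (ENSMUSG00000041515, chromosome 8, 120736358 to 120756694) overlap no gene that the files count.

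The targeted gene, Irf5, went against the labels. It had 293 and 432 UMIs in the female and male libraries labelled knockout, and 15 and 55 in those labelled wild type, a log2 difference of 2.94 ± 0.18 (SE, adjusted p = 6.0e-07, edgeR quasi-likelihood test with Benjamini-Hochberg adjustment). The groups did not overlap, and the difference was 3.19 between the female libraries and 2.94 between the male ones. Whether the counted 3′ tags lie in the part that the allele lacks is not given in the labels, so a swap of labels can be neither shown nor set aside, and directions below are those of the libraries as labelled. The Irf5 UMIs were spread thinly: no cell of the libraries labelled knockout held more than 8, and cells with markers of other types held 5, 0, 1 and 9 of the UMIs in the 4 libraries. Summed markers of myeloid cells stood at 9.47 and 3.32 CPM in the libraries labelled knockout and 2.25 and 2.63 CPM in those labelled wild type, and B cell markers at 6.78 and 3.86 against 2.68 and 0.947 CPM. Without the cells that carried such markers the Irf5 difference was 3.09 (adjusted p = 1.5e-16, edgeR).

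Irf7, which amplifies interferon production and is itself induced by interferon, was the other member called higher in the libraries labelled knockout, by a log2 difference of 0.58 ± 0.12 (SE, adjusted p = 0.028, edgeR quasi-likelihood test). The libraries labelled knockout held 35.8 and 29.7 CPM and those labelled wild type 29.2 and 15.2 CPM, so the groups only just failed to overlap. The difference was 0.29 between the female libraries and 0.97 between the male ones. Without the male library labelled wild type it was 0.12 (adjusted p = 0.72), and the call was also lost without the female library labelled knockout (adjusted p = 1.0), without the male library labelled knockout (0.80), in DESeq2 (0.43), without the sex term (0.91), without TMM scaling (0.066) and without a filter on low counts (0.45). In all, 2 of 8 members were called, both higher, where 1.21% of the 12855 genes tested were called.

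Differences for the remaining 6 members between the genotypes lay between -0.08 and 0.12 on the log2 scale, with adjusted p from 0.87 to 1.0 in edgeR, which does not show that they were equal. Irf4 averaged 679 ± 11.1 CPM (SD, n = 2) under the knockout label and 648 ± 17.5 CPM (SD, n = 2) under the wild-type label. Irf8 was lower by 0.30 in the female and higher by 0.27 in the male library labelled knockout, so its pooled value of -0.08 averages opposite directions. Irf1 did the same with a smaller span, -0.10 in females and 0.30 in males. With 2 libraries against 2, an exact permutation test could not give a two-sided p below 0.333, and the p-values above pool the spread over genes.

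Of the IRF pathway lists, 3 of 23 interferon stimulated targets, 2 of 22 IRF partners, 1 of 9 receptor and JAK genes and 0 of 18 upstream genes were called between the genotypes, all higher in the libraries labelled knockout, beside 155 of the 12855 genes tested (1.21%). That total was 47 in DESeq2, 20 without the filter on low counts and 7 without the sex term. The targets were Ifit3 (0.86 ± 0.08), Isg15 (0.62 ± 0.10) and Oasl2 (0.41 ± 0.08), log2 differences with SE. The median of the target list was 0.19, beside 0.00019 over all genes tested. Usp18, which restrains the type I interferon receptor, was higher by 0.87 ± 0.15, Batf by 0.43 ± 0.08 and Swap70 by 0.58 ± 0.08. The largest upstream estimates did not pass in edgeR: Tlr7 stood at 0.70 (adjusted p = 0.44) and Tmem173, the DNA sensor adaptor STING, at 0.31 (adjusted p = 0.14).

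Cells were next ordered within each library by an activation score. It was the share of their UMIs that came from 12 activation genes (Cd69, Cd40lg, Cd83, Egr1, Egr2, Il2, Il2ra, Myc, Nr4a1, Nr4a3, Tnfrsf4 and Tnfrsf9). The cells were divided into 5 equal groups, of which group 1 had the lowest and group 5 the highest score. Whether the score follows the strength or the timing of activation was not tested. Irf4 and Irf8 rose from group 1 to group 5 in all 4 libraries, and by different courses. Irf4 had 149, 96.0, 101 and 90.5 CPM in group 1, already 574, 528, 547 and 518 CPM in group 2, and 918, 895, 914 and 866 CPM in group 5. In cells thinned to 2000 UMIs its mean over the libraries was 135 ± 34.3 CPM in group 1, 469.9 ± 38.8 in group 2, 744 ± 29.7 in group 3 and 876 ± 19.4 in group 5 (SD, n = 4). Irf8 had 86.4, 74.2, 63.8 and 43.1 CPM in group 1, 199, 253, 184 and 151 CPM in group 3 and 619.8, 829, 688 and 602 CPM in group 5, with no overlap between these 3 groups. From group 3 to group 5 Irf8 gained 1.84 ± 0.04 on the log2 scale and Irf4 0.28 ± 0.03. Between groups 1 and 3 the order was the reverse, with 2.99 ± 0.10 for Irf4 and 1.74 ± 0.09 for Irf8.

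Irf1, Irf7 and Irf9 followed another course, high in group 1, low in the middle of the range and higher again in group 5. Irf1 had 376, 383, 369 and 349 CPM in group 1, 135, 149.7, 126 and 99.4 CPM in group 3 and 360.2, 421, 368 and 296 CPM in group 5, and group 3 lay below both ends in every library. Irf7 fell from 116, 90.2, 101 and 58.6 CPM to 11.7, 7.58, 7.83 and 3.35 CPM in group 3 and stood at 41.6, 36.6, 33.2 and 16.9 CPM in group 5. Irf9 went from 127 ± 7.4 to 42.7 ± 10.3 and then 74.2 ± 13.7 CPM (SD, n = 4). Between groups 1 and 3 these 3 genes fell by 1.37 ± 0.07, 3.45 ± 0.12 and 1.44 ± 0.11 on the log2 scale, and from group 3 to group 5 they rose by 1.53 ± 0.04, 2.08 ± 0.11 and 0.82 ± 0.06. The comparison of the 2 ends alone called Irf1 neither way, at 0.11 ± 0.06 (adjusted p = 0.12, edgeR), and its sign turned without TMM scaling (-0.04). Between the 10% of cells with the highest and the 10% with the lowest score Irf1 was called higher, at 0.47 (adjusted p = 0.00038, edgeR), as it was between groups 5 and 1 without a filter on low counts (0.21, adjusted p = 0.013).

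Irf2, the counterpart of Irf1 at shared sites, fell and stayed low, from 249 ± 6.4 CPM in group 1 to 85.3 ± 10.3 in group 3 and 94.0 ± 10.4 in group 5 (SD, n = 4). Irf3, which is regulated mainly by phosphorylation, had 46.4 ± 3.8, 43.4 ± 2.4 and 66.4 ± 5.3 CPM (SD, n = 4) in the same 3 groups. Irf5 had 3.70, 1.23, 6.30 and 1.80 CPM in group 1 and 13.0, 1.03, 13.2 and 1.77 CPM in group 5, and the higher values lay in the libraries labelled knockout. The call of Irf5 between these ends (1.24 ± 0.27) could not be recomputed without the male library labelled knockout, in thinned cells or between the highest and lowest 10% of cells, since Irf5 then failed the filter on low counts, and was lost without the library block (1.27, adjusted p = 0.090, edgeR).

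**Figure D2:**
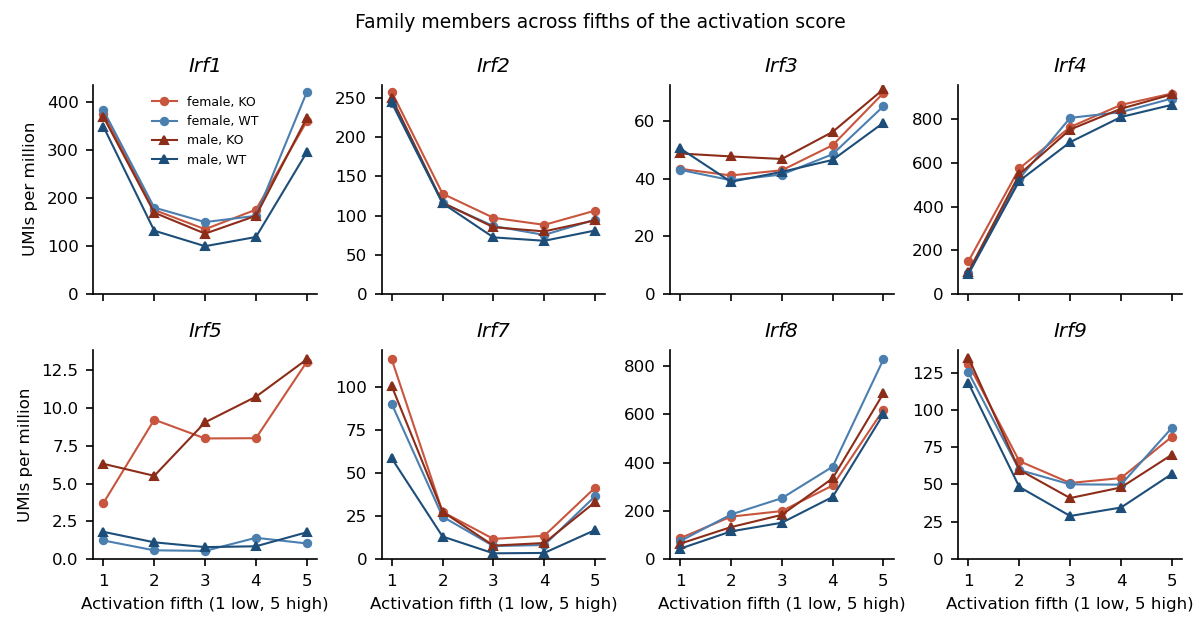
CPM of each member in the 5 groups of the activation score (x axis, 1 lowest and 5 highest), with 1 line for each of the 4 libraries and a y axis for each gene that starts at 0. Irf4 climbs from group 1 to group 3 and flattens, Irf8 climbs most into group 5, and Irf1, Irf7 and Irf9 are lower in group 3 than at either end in every library.

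Between groups 5 and 1, 7 of 8 members were called by edgeR (4 higher and 3 lower), where 80.8% of all genes tested were called, so the count is near the background and the sizes carry the description. The differences were 3.22 ± 0.10 for Irf4 and 3.54 ± 0.12 for Irf8, against a median absolute value of 1.25 over the 8 members. From group 1 to group 3, 6 of 8 members were called (2 higher, 4 lower) with 78.2% of all genes called, and from group 3 to group 5 8 of 8, all higher, with 54.1% of all genes called. These steps to and from group 3 were chosen after the levels had been seen. The median mitochondrial share of UMIs per cell was 4.57% to 4.88% in group 1, 3.64% to 3.70% in group 3 and 3.48% to 3.59% in group 5, and its part in these differences was not tested. Group 1 had the shallowest cells, with median depths of 3358, 5716, 4550 and 6220 UMIs against 6196, 10151, 8343 and 12083 UMIs in group 3 and 4702, 7819, 6352 and 9024 UMIs in group 5. It also held 32 of the 71 cells with markers of other types, and its myeloid and B markers summed to 7.53 to 85.0 CPM, beside 2.44 to 5.24 CPM in group 3. Without those cells the difference between the ends was 3.20 for Irf4, 3.55 for Irf8 and -1.40 for Irf7.

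The interferon pathway genes dipped with Irf1, Irf7 and Irf9. From group 1 to group 3 23 of 23 tested interferon stimulated targets fell, where 78.2% of all genes were called, with a list median of -1.70 beside 0.0041 over all genes. From group 3 to group 5 21 of 23 rose, where 54.1% of all genes were called, with a median of 1.45 beside -0.02. Oasl2 had 113 ± 23.6, 5.1 ± 1.6 and 22.1 ± 10.3 CPM in groups 1, 3 and 5, and Ifit3 100.3 ± 38.2, 4.4 ± 1.9 and 15.6 ± 8.6 CPM (SD, n = 4). The guanylate-binding protein Gbp2, an interferon gamma target, had 1635 ± 73.9, 457 ± 127 and 810.1 ± 157 CPM. Cd274, which encodes the checkpoint ligand PD-L1, ended above its start, at 140.3 ± 3.6, 87.9 ± 10.6 and 409.6 ± 52.7 CPM. Ifit2 and Bst2 were the 2 targets that did not pass from group 3 to group 5, at 0.43 (adjusted p = 0.09) and 0.08 (adjusted p = 0.20) in edgeR.

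Most receptor and JAK genes went the same way. From group 1 to group 3 8 of 9 receptor and JAK genes fell and 1, Jak2, rose, with a list median of -1.06 beside 0.0041 over all genes, of which 78.2% were called. From group 3 to group 5 8 rose and 1 fell, where 54.1% of all genes were called. The gene that fell was the interferon gamma receptor chain Ifngr1, which had gone from 564 ± 37.8 to 68.2 ± 16.7 CPM and ended at 60.7 ± 13.2 CPM (SD, n = 4). Stat2, which assembles with Irf9, fell by 3.06 ± 0.09 and then rose by 0.99 ± 0.12 on the log2 scale. Among the 22 tested IRF partners, 10 were higher and 9 lower in group 5 than in group 1, a share near the 80.8% of all genes called. Those that rose included Nfkb1 (3.22 ± 0.06), Rel (3.12 ± 0.06), Nfatc1 (2.89 ± 0.08), Junb (2.66 ± 0.06) and Batf (1.68 ± 0.14), the last the partner of Irf4 at AP-1 composite sites in T cells. Ets1 was lower by 2.86 ± 0.10. Spi1, the myeloid partner of Irf4 and Irf8, had 5.2 ± 4.2 CPM in group 1, where cells with markers of other types were most frequent, 1.3 ± 0.82 CPM in group 2, 0.48 ± 0.66 CPM in group 3 and 0.070 ± 0.090 CPM in group 4 (SD, n = 4). Upstream, 6 of 18 genes were higher and 6 lower at the high end, a smaller share than that of all genes, with Cgas at 2.00 ± 0.15 and Traf3 at 1.41 ± 0.08 against Tmem173 at -1.68 ± 0.10 and Ikbke at -1.73 ± 0.08.

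**Figure D3:**
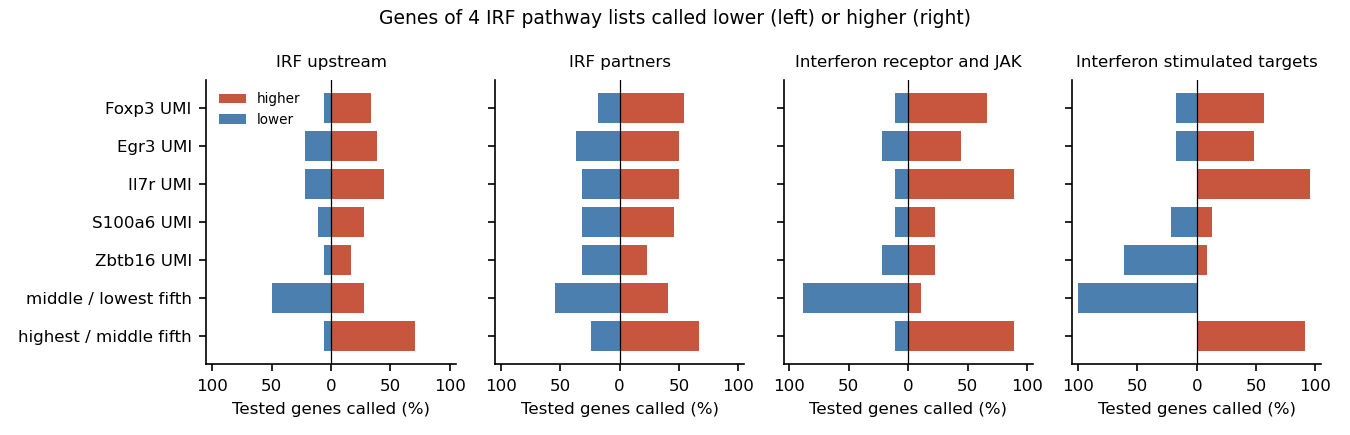
Share of the tested genes of each of 4 IRF pathway lists that was called higher (red, to the right) or lower (blue, to the left) in 7 comparisons of cells, by edgeR at an adjusted p under 0.05. Of 23 interferon stimulated targets, 23 were lower in group 3 than in group 1, 21 were higher in group 5 than in group 3, and 22 were higher in cells with an Il7r UMI. Of all genes tested, 78.2%, 54.1% and 73.4% were called in these comparisons, in this order.

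Irf4 and Irf8 were found together more often than their separate frequencies give. In thinned cells the odds ratio of detecting both was 2.26, 2.35, 2.57 and 2.67 in the 4 libraries, and in the female library labelled knockout 1341 cells held both where 1094 follow from independence. Without thinning the odds ratios were 4.66, 5.58, 5.75 and 5.96, so a part of the unthinned figure moves with depth. Within activation groups the odds ratios were 2.64, 2.85, 2.51 and 2.15 in group 1, above the whole-library value in both female libraries and below it in both male ones. In group 5 they were 1.35, 1.16, 1.17 and 1.33, below it in all 4. In group 1 Irf8 was detected in 23.4%, 29.8%, 18.8% and 13.5% of thinned cells with an Irf4 UMI and in 10.4%, 13.0%, 8.47% and 6.74% of those without. In group 5 it was detected in 55.7%, 63.9%, 58.4% and 52.9% of cells with Irf4 and in 48.2%, 60.4%, 54.5% and 45.8% of cells without. These ratios are a description over cells of a library, and free RNA of both genes enters them.

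**Figure D4:**
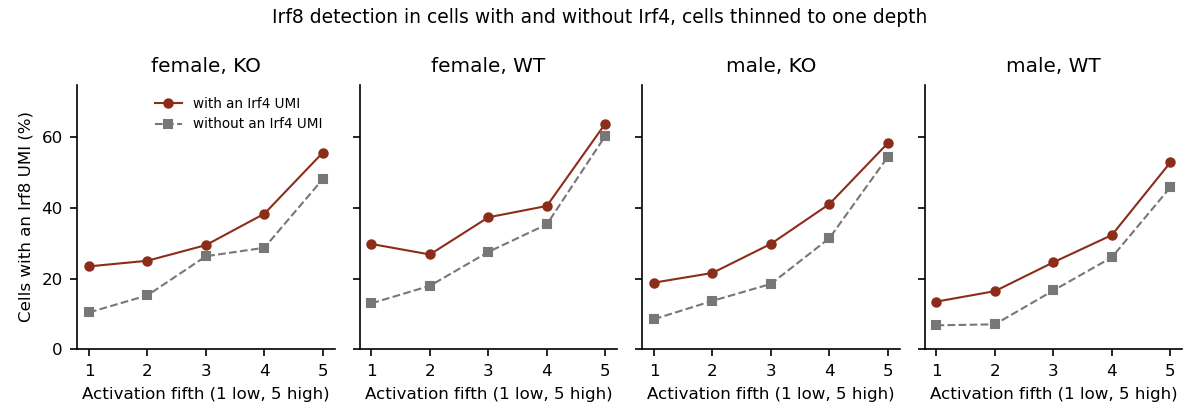
Percent of cells with an Irf8 UMI (y axis) among cells with (filled circles) and without (grey squares) an Irf4 UMI, by activation group (x axis), 1 panel per library, every cell thinned to 2000 UMIs. Both lines are higher in group 5 than in group 1 in every library, and cells with Irf4 lie above cells without it in every group of every library.

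The other members were mostly lower in cells with an Irf4 UMI. Irf8 was higher there by 1.75 ± 0.09 on the log2 scale, with 311, 381, 318 and 261 CPM against 133, 147, 111 and 72.4 CPM in cells without, and no overlap. Irf7 was lower by 2.55 ± 0.07, from 117, 103, 102 and 62.3 CPM in cells without Irf4 to 17.8, 15.5, 14.9 and 7.75 CPM in cells with it. Irf2, Irf9 and Irf1 were lower by 1.22 ± 0.07, 1.09 ± 0.08 and 0.96 ± 0.05. Irf3 and Irf5 were called higher, at 0.16 ± 0.06 and 0.57 ± 0.24, but Irf3 turned to -0.10 without TMM scaling, and both calls were lost without either library labelled knockout (Irf3 0.15 and 0.18, Irf5 0.32 and 0.42) and in DESeq2 (0.17 and 0.45). Neither passed without the library block (adjusted p = 0.067 and 0.54, edgeR) or with at least 2 UMIs of Irf4 (adjusted p = 0.055 and 0.092). Irf3 was also lost without cells that carried markers of other types (adjusted p = 0.052) and among cells without an Egr3 UMI (adjusted p = 0.075), and Irf5 in thinned cells (0.33, adjusted p = 0.16), with doublets removed (adjusted p = 0.056) and without TMM scaling (adjusted p = 0.24). In thinned cells the differences were smaller for Irf8 (1.16), Irf7 (-1.93), Irf2 (-1.01), Irf9 (-0.85) and Irf1 (-0.60). All 7 members tested were called, where 79.7% of all genes were, and cells with Irf4 were deeper, at 5855 to 10798 median UMIs against 3375 to 6002. Among cells with an Egr3 UMI the Irf8 difference was 0.04 (adjusted p = 0.78, edgeR), and Irf3 was lower by 0.65.

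In cells with an Irf8 UMI, Irf4 was higher by 0.65 ± 0.03, at 804, 767, 801 and 750 CPM against 575, 493, 532 and 521 CPM. Irf1 was higher by 0.52 ± 0.03 and Irf3 by 0.26 ± 0.04, while Irf7 was lower by 0.72 ± 0.05 and Irf2 by 0.29 ± 0.03. The Irf7 call was lost without the library block (-0.72, adjusted p = 0.051, edgeR). Irf9 and Irf5 did not pass, at 0.06 and 0.30, so 5 of 7 members were called, where 55.1% of all genes were. With at least 2 UMIs of Irf8 both were called higher, Irf9 at 0.11 (adjusted p = 0.033, edgeR) and Irf5 at 0.37 (adjusted p = 0.030). Among cells with an Egr3 UMI the signs of Irf7 and Irf2 turned: Irf7 was higher by 0.54 ± 0.13 (adjusted p = 0.0052, edgeR) and Irf2 stood at 0.20 (adjusted p = 0.064), and Irf9 was called higher at 0.69 ± 0.10.

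Egr3, a transcription factor induced within hours of T cell receptor signalling, divided cells much as the score did. Between 54.9% and 61.8% of the 3405 cells with an Egr3 UMI lay in group 5, and 0.739% to 1.42% in group 1. Irf8 showed the largest difference of the family, with 584, 647, 526 and 473 CPM in cells with Egr3 and 229, 263, 217 and 167 CPM in cells without (1.48 ± 0.03, adjusted p = 4.6e-12, edgeR). The groups did not overlap. Irf1 was higher by 0.75 ± 0.04, Irf3 by 0.50 ± 0.05 and Irf4 by 0.47 ± 0.02, the last from 665, 621, 629 and 603 to 822, 806, 827 and 747 CPM. In thinned cells Irf1 stood at 1.24, Irf3 at 0.69 and Irf4 at 0.50. Irf2 was lower by 0.22 ± 0.05, but stood at -0.09 (adjusted p = 0.51, edgeR) in thinned cells. Irf7 and Irf9 did not pass, at 0.09 and 0.04, and both passed in thinned cells, at 0.57 and 0.25. Irf5 was called at 0.55 ± 0.19, and lost the call without the male library labelled knockout (0.41, adjusted p = 0.28, edgeR), in DESeq2 (0.50, adjusted p = 0.19), in thinned cells (0.65, adjusted p = 0.16), without TMM scaling (0.42, adjusted p = 0.072) and without the library block (0.52, adjusted p = 0.62). With these, 6 of 8 members were called (5 higher, 1 lower), where 53.3% of all genes were. Of the interferon stimulated targets 11 of 23 were higher and 4 lower, led by Cd274 (1.59 ± 0.04) and Isg20 (1.45 ± 0.11), and Ifit2 was the lowest (-0.97 ± 0.21).

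Cells with UMIs of Il7r, the interleukin-7 receptor chain that resting T cells carry and lose on activation, differed from cells with Egr3 in the direction of 3 members: Irf4 and Irf8 were lower with Il7r and higher with Egr3, and Irf2 the reverse, while Irf1 was higher with both. Between 55.3% and 58.0% of these 4283 cells lay in group 1. Irf7 was higher in them by 2.00 ± 0.14, with 91.2, 69.8, 76.2 and 47.2 CPM against 25.8, 20.9, 19.5 and 6.32 CPM. Irf2, Irf9 and Irf1 were higher by 1.09 ± 0.06, 0.96 ± 0.07 and 0.91 ± 0.07. Irf4 was lower by 1.29 ± 0.04, at 333, 335, 323 and 302 CPM against 750.2, 727, 747 and 727 CPM. None of these 5 members had overlapping groups, in a comparison where 73.4% of all genes were called. The share of all genes without overlap is not given here.

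Irf8 was lower in cells with Il7r by 0.66 ± 0.07, but this depended on which cells were compared. Among cells without an Egr3 UMI it was lower by 0.98 ± 0.08, and among cells with one it was higher by 0.25 ± 0.05 (adjusted p = 0.00017, edgeR). Irf4 kept its direction in both, at -1.58 ± 0.06 and -0.20 ± 0.05. With every cell thinned to 2000 UMIs the differences over all cells were wider, at -1.77 for Irf8 and -2.26 for Irf4, and with at least 2 UMIs of Il7r they were -1.33 and -2.06. The cells with and without Egr3 were not tested against each other. Irf3 did not pass, at 0.0012, and Irf5 not at -0.19, although without the male library labelled wild type Irf5 was called lower (-0.58, adjusted p = 0.018, edgeR). The count was 6 of 8 (4 higher, 2 lower), where 73.4% of all genes were called. Cells with Il7r were shallower, at 3763 to 6620 median UMIs against 5438 to 10780.

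The interferon pathway genes accompanied Irf7 and Irf9 in the cells with Il7r. Of the interferon stimulated targets 22 of 23 were higher and none lower, where 4142 of the 10971 genes tested were higher and 3906 lower. The list median was 1.12 beside 0.03 over all genes. Oasl2 (2.66 ± 0.16), Ifit3 (2.55 ± 0.15) and Ifit2 (2.52 ± 0.12) had the largest values. Bst2 did not pass, at 0.10 (adjusted p = 0.12, edgeR). All 9 receptor and JAK genes were called, 8 higher, where 73.4% of all genes were called, with Ifngr1 at 2.54 ± 0.17 and Jak2 alone lower at -0.57 ± 0.08. Stat2, the partner of Irf9, was higher by 1.98 ± 0.13, and the sensors Ddx58 and Tmem173 by 2.09 ± 0.13 and 2.08 ± 0.10.

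**Figure D5:**
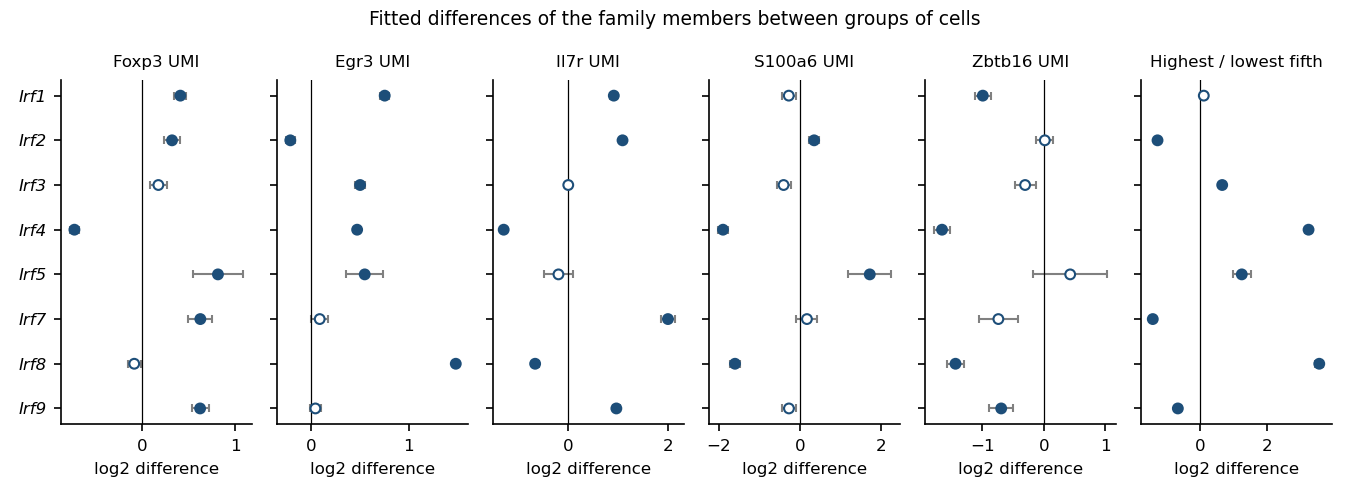
Fitted log2 difference (x axis, with SE bars, scales differ between panels) of each member between cells with and without a UMI of 5 genes, and between activation groups 5 and 1, over 4 libraries. Filled points passed an adjusted p of 0.05 in edgeR. Irf4 lies below 0 for Foxp3, Il7r, S100a6 and Zbtb16 and above 0 for Egr3 and activation, where Irf8 has the largest values, 1.48 and 3.54.

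Foxp3 is the lineage factor of regulatory T cells. The 862 cells with a Foxp3 UMI had less Irf4, with 491, 405, 463 and 443 CPM against 697, 665, 682 and 642 CPM (-0.72 ± 0.05, adjusted p = 3.1e-09, edgeR), although 33.3% to 41.8% of them lay in group 5 of a score that includes Il2ra, itself a regulatory T cell marker. Irf7 (0.63 ± 0.13), Irf9 (0.62 ± 0.09), Irf1 (0.41 ± 0.06) and Irf2 (0.32 ± 0.08) were higher. The Irf7 call was lost without the library block (0.61, adjusted p = 0.068, edgeR). Irf9 had 107, 159, 97.3 and 96.6 CPM against 70.1, 68.6, 63.0 and 49.7 CPM, with no overlap. The female library labelled wild type contributed only 42 cells with Foxp3. Irf5 was called at 0.81 ± 0.27, and the call was lost without the male library labelled knockout (0.88, adjusted p = 0.15), without the male library labelled wild type (0.65, adjusted p = 0.053, edgeR), in DESeq2 (0.90, adjusted p = 0.091), with at least 2 UMIs of Foxp3 (0.71, adjusted p = 0.094) and without the library block (1.05, adjusted p = 0.37). Irf3 and Irf8 did not pass, at 0.18 and -0.08, and Irf8 passed without the male library labelled wild type (-0.17, adjusted p = 0.024, edgeR) and in thinned cells (-0.31, adjusted p = 0.025). Irf3 passed with at least 2 UMIs of Foxp3 (0.30, adjusted p = 0.036) and without TMM scaling (0.34, adjusted p = 0.0069, edgeR). In total 6 of 8 members were called (5 higher, 1 lower), where 35% of all genes were.

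Restricting this comparison to cells with an Egr3 UMI, of which only 4 to 34 per library also had Foxp3, kept Irf4 lower (-0.40 ± 0.12, adjusted p = 0.026, edgeR) and called Irf8 lower (-0.53 ± 0.14, adjusted p = 0.0045). Irf1, Irf2, Irf7 and Irf9 lost their calls there (0.04, 0.28, 0.26 and 0.28). In cells without Egr3, Irf8 stood at 0.22 (adjusted p = 0.060, edgeR). Among the IRF partners 12 of 22 were higher and 4 lower in cells with Foxp3, taken over all cells. Of the 10594 genes tested there, 1896 were higher and 1808 lower (35% called). Swap70 (2.41 ± 0.09), Jun (2.37 ± 0.11) and Batf (1.90 ± 0.11) had the largest values of the list. Interferon stimulated targets were mixed, with 13 of 23 higher and 4 lower, Isg20 at 1.08 ± 0.13 and Ifit2 at -0.54 ± 0.20.

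S100a6 encodes a calcium-binding protein that is frequent in memory T cells. The 240 cells with an S100a6 UMI had less Irf4, by the widest margin among Foxp3, Egr3, Il7r, S100a6 and Zbtb16, at 289, 229.7, 210.5 and 171 CPM against 694, 666, 676 and 642 CPM (-1.90 ± 0.13). Irf8 followed, at 103, 147, 109 and 110 CPM against 282, 347, 285 and 237 CPM (-1.60 ± 0.13). Neither had overlapping groups, and the share of all genes without overlap is not given here. Irf2 was called at 0.34 ± 0.13, a call lost when any 1 of the 4 libraries was left out (0.24 to 0.41), and Irf5 at 1.71 ± 0.53, lost without the male library labelled wild type (0.86, adjusted p = 0.16), without cells that carried markers of other types (1.23, adjusted p = 0.053, edgeR), in thinned cells (1.10, adjusted p = 0.49) and without the library block (adjusted p = 0.28). The myeloid genes Spi1 (5.66 ± 0.52) and Lyn (3.92 ± 0.50) were higher in cells with S100a6, and without cells that carried markers of other types Irf4 stood at -1.87 and Irf8 at -1.75. Irf1, Irf3, Irf7 and Irf9 did not pass, at -0.28, -0.41, 0.17 and -0.27. Irf1 was called lower without the female library labelled wild type (-0.58, adjusted p = 0.0036, edgeR), where 30 cells with S100a6 held 455 CPM, and also in thinned cells (-0.78, adjusted p = 0.0088) and without a filter on low counts (-0.41, adjusted p = 0.0082). Irf3 was called lower without the male library labelled knockout (-0.56, adjusted p = 0.047, edgeR) and without that filter (-0.54, adjusted p = 0.018). In thinned cells Irf4 stood at -2.71 and Irf2 at 0.05 (adjusted p = 0.93, edgeR). The count was 4 of 8, where 37.3% of all genes were called.

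Zbtb16 encodes PLZF, the factor of innate-like T cells. In the 257 cells with a Zbtb16 UMI Irf4, Irf8, Irf1 and Irf9 were lower. Zbtb16 stood at 9.46 CPM in the 53 deep cells without T markers and at 2.44 CPM in those with them, and S100a6 at 24.2 and 7.10 CPM, and the part of such cells in these divisions was not tested. Irf4 had 265, 153, 319 and 269 CPM against 693, 668, 677 and 639 CPM (-1.66 ± 0.13), and Irf8 128, 104, 133 and 127 CPM against 281, 348, 286 and 237 CPM (-1.44 ± 0.13). Irf1 was lower by 1.00 ± 0.13, from 229, 246, 223 and 179 CPM to 124, 132, 117 and 156 CPM, again without overlap. It stood at -1.57 in thinned cells and lost its call among cells with an Egr3 UMI (-0.88, adjusted p = 0.11, edgeR). Irf9 was lower by 0.69 ± 0.19, a call lost without the female (-0.51) or the male library labelled knockout (-0.48), in DESeq2 (-0.60, adjusted p = 0.066), without TMM scaling (-0.43) and among cells without an Egr3 UMI (-0.53), and kept in thinned cells (-1.45, adjusted p = 0.0046, edgeR). Irf7 did not pass at -0.74 ± 0.32. It was called lower in 5 alternatives: thinned cells (-2.00, adjusted p = 0.016), cells with at least 2 UMIs of Zbtb16 (-1.18, adjusted p = 0.021), without a filter on low counts (-0.75, adjusted p = 0.031), without cells that carried markers of other types (-0.86, adjusted p = 0.046) and without the female library labelled knockout (-1.36, adjusted p = 0.0056, all in edgeR). Thinned values of Irf4 and Irf8 were -2.35 and -2.10. Irf2, Irf3 and Irf5 did not pass, at 0.02, -0.31 and 0.43. That is 4 of 8 members, all lower, where 29.2% of all genes were called. Of the interferon stimulated targets 14 of 23 were lower and 2 higher, with Ifit3 at -2.62 ± 0.37 and Gbp2 at -1.63 ± 0.16, while Ifngr1 was higher by 1.70 ± 0.11.

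Whether the differences by Foxp3, Egr3, Il7r, S100a6, Zbtb16 and activation varied with the labelled genotype was tested for each member. Of 48 tests of an interaction in edgeR 0 passed an adjusted p of 0.05, the lowest being 0.277, and 12 had an unadjusted p under 0.05. That does not show that the differences were the same under both labels. Over all genes in the same 6 fits 0.207% were called, and an unadjusted p under 0.05 was reached by 654 of 10594 genes for Foxp3, 329 of 10729 for Egr3, 462 of 10971 for Il7r, 701 of 10632 for S100a6, 957 of 10462 for Zbtb16 and 712 of 10279 for activation.

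The genes whose UMIs followed each member most closely from cell to cell were taken as the 5 with the highest Pearson r among 4110 genes, as the median of 4 libraries in thinned cells, which share library and free RNA. Irf1 went with Gbp2 (r = 0.37), Gbp7, Iigp1, Gbp4 and Samhd1. Irf7 went with Samhd1 (r = 0.30), Ifi27l2a, Fyb, Iigp1 and Zbp1. Irf4 went with the nucleolar genes Ncl (r = 0.44) and Npm1, with Cd69, Hsp90ab1 and Eif3c, and Irf8 with Cd69 (r = 0.38), Nr4a1, Nfkbid, Nr4a3 and Gadd45b. Cd69, Nr4a1 and Nr4a3 belong to the activation list, and Cd69 was the gene that the lists of Irf4 and Irf8 shared.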

How the data were processed

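The deposited values are UMI counts per gene and droplet, made by the authors with Cell Ranger 6.0.2 on mm10, per the submitters' processing notes; whether counting used strand is not given in the sources used here. Kept cells passed the filters given above. UMIs of the cells on each side of a division were summed per library and tested with edgeR 4.0.16 (TMM, filterByExpr, quasi-likelihood test, Benjamini-Hochberg over all genes tested, called at an adjusted p under 0.05), with library as a block, or with sex for the genotype. The gene that divided the cells was left out of its own test. Levels are CPM of summed UMIs, and intervals are exact at 95% and cover counting error only. Overlap of groups is described for members only, without the share over all genes. Scrublet in scanpy 1.11.5 marked 3 to 134 doublets per library, so doublets were kept, and the 0.8% of cells per 1000 recovered with the highest scores were removed as an alternative. Other alternatives were DESeq2 1.42.0, no filter, thinning to 2000 UMIs, a split at 2 UMIs, no block or sex term, Egr3 subsets, removal of cells with other-type markers and leaving out each library. Added after the data were seen were the steps to and from activation group 3, the deep cells without T markers and the fits without TMM. On simulated data the genotype fit recovered 43.5% of genes changed by 0.5 and 77% of those changed by 1 on the log2 scale, and the Egr3 fit 69.5% and 91.5%. The share of false calls in these runs was 7.45% and 1.28% for the genotype fit and 5.44% and 4.19% for the Egr3 fit. The text names all 8 members, genes of 4 IRF pathway lists, and the 5 genes most correlated with Irf1, Irf4, Irf7 and Irf8 among genes with a UMI in at least 5% of thinned cells of every library. Members and lists were chosen with earlier results of these data known. Promoter windows come from RefSeq on GRCm38.p6, and gene positions from GENCODE M21.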

Additional observations from a re-analysis of the deposited data

Results flagged for a closer look

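Irf1 and Irf8 moved in opposite directions in the sexes. Between the library labelled knockout and the library labelled wild type, Irf1 differed by -0.10 in females and 0.30 in males on the log2 scale, and Irf8 by -0.30 in females and 0.27 in males. With 1 library per sex and genotype the difference between the sexes was not tested. The male library labelled wild type had the lowest level of both genes and the female library labelled wild type the highest.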

How the results depend on the processing

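The number of genes called between the genotypes was 155 in edgeR, 47 in DESeq2, 20 without the filter on low counts, 7 without the sex term and 293 without cells carrying other-type markers, and 43 to 117 with 1 library left out. In thinned cells the calls fell from 3704 to 2128 (Foxp3), from 5721 to 2588 (Egr3), from 3964 to 1632 (S100a6) and from 3057 to 1490 (Zbtb16). Among cells with an Egr3 UMI, which are fewer, they were 382 (Foxp3), 2626 (Il7r, 8048 in all cells), 120 (S100a6), 395 (Zbtb16), 3002 (Irf4, 8829 in all cells) and 1472 (Irf8, 6398 in all cells). Of the alternatives for member differences that had been called, 553 kept the call and direction, 62 lost the call and 6 turned sign. Of those for differences not called, 234 stayed so with the same sign, 25 gained a call and 37 turned sign. In thinned cells, the sign turned to -0.017 for Irf4 (genotype), -0.20 for Irf3 (Il7r split), -0.20 for Irf2 (Zbtb16 split) and -0.071 for Irf9 (Irf8 split). Without cells carrying other-type markers, the sign turned to -0.0079 for Irf4 (genotype) and -0.0053 for Irf3 (Il7r split). Among cells without an Egr3 UMI, the sign turned to 0.22 for Irf8 (Foxp3 split) and -0.061 for Irf9 (Irf8 split). Without TMM scaling, the sign turned to 0.080 for Irf8 (Foxp3 split), -0.037 for Irf7 and -0.081 for Irf9 (Egr3 split), 0.036 for Irf1 and 0.029 for Irf9 (S100a6 split), -0.036 for Irf1 (activation groups), -0.10 for Irf3 (Irf4 split) and -0.038 for Irf9 (Irf8 split). In DESeq2, the sign turned to -0.020 for Irf3 and 0.031 for Irf5 (Il7r split). With at least 2 UMIs against none, the sign turned to -0.067 for Irf3 (Il7r split). With likely doublets removed, the sign turned to -0.029 for Irf3 (Il7r split). Without the filter on low counts, the sign turned to -0.095 for Irf3 (Il7r split). Among cells with an Egr3 UMI, the sign turned to 0.35 for Irf5 and 0.25 for Irf8 (Il7r split), -0.031 for Irf7 (S100a6 split), 0.13 for Irf7 (Zbtb16 split), -0.65 for Irf3 and -0.53 for Irf5 (Irf4 split), 0.20 for Irf2 and 0.54 for Irf7 (Irf8 split). With 1 library left out at a time, the log2 differences that turned sign ranged over -0.16 to 0.23 for Irf1, -0.0024 to 0.13 for Irf2, -0.0098 to 0.016 for Irf4, -0.33 to 0.16 for Irf8, -0.083 to 0.32 for Irf9 (genotype). The same range was -0.046 to 0.17 for Irf7, -0.0028 to 0.095 for Irf9 (Egr3 split). It was -0.087 to 0.010 for Irf3, -0.58 to 0.14 for Irf5 (Il7r split). The same range was -0.096 to 0.51 for Irf7 (S100a6 split). It was -0.14 to 0.15 for Irf2, -0.061 to 1.12 for Irf5 (Zbtb16 split). Without TMM the balance of all genes called moved: 1896 higher and 1808 lower became 2822 higher and 928 lower for Foxp3, 2888 higher and 2833 lower became 1811 higher and 4255 lower for Egr3, 1984 higher and 1980 lower became 3099 higher and 1022 lower for S100a6, 1328 higher and 1729 lower became 2081 higher and 896 lower for Zbtb16, 4332 higher and 4497 lower became 3368 higher and 5563 lower for Irf4, 3226 higher and 3172 lower became 2153 higher and 4308 lower for Irf8, 104 higher and 51 lower became 92 higher and 23 lower for genotype. The cause of these changes was not tested. The genotype fit paired the libraries by sex, and every division of cells was paired within its library through the block; without the pairing by sex 7 genes were called between the genotypes, against 155 with it. Irf5, at 15 to 432 UMIs per library, is limited by depth, and its thinned or leave-one-out fit is missing where it failed the filter on low counts.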
